A study of Brassica napus with 12 samples.

Results

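The genes described here are abundant rapeseed genes whose level swung between replicate libraries of the same line, in at least 2 lines. Members were taken from IDs starting with Bna that are listed in all 12 files. Each had a mean CPM of at least 50, where CPM is the deposited count over the total of its column, in the usual scaling. Each also had, in at least 2 lines, a highest replicate at least 5 times the lowest, after 0.1 CPM was added to both. Genes whose mean CPM in YH25005 was at least 4 times that of each other line were set aside. The rule kept 98 genes of the 50338 listed in any file, or of the 3611 abundant Bna genes listed in all files. A further 47 genes swung in the same way but were set aside for their YH25005 level.

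The study compared 4 inbred Brassica napus lines, A28, R8Q10, SW and YH25005, by RNA sequencing of immature seeds taken 24 days after pollination from bagged, self-pollinated field plants. Each line had 3 libraries, written below as line and replicate number, such as A28-1. No treatment, transgene or induced mutation is named for any line. The labels give the tissue as seeds while the extraction protocol speaks of embryos, and they do not say which lines are high in linolenic acid, or whether replicates came from separate plants. The p-values below therefore cover only the variation among these libraries, which may be technical. Library totals lay between 30150457 and 40762254 counts.

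Rapeseed carries 2 related subgenomes, A and C, so most genes have a close copy on the other subgenome. During seed filling, the embryo grows, greens and then turns to making storage protein and oil, while the endosperm is used up and the seed coat matures. Transcripts of such stage-bound programmes are abundant, and their level depends on the stage a seed has reached and on which seed tissues enter the RNA. In a bulk sample fewer cells of a type and less RNA per cell cannot be told apart. The files give no gene names, and the reference table matched 5 of the 98 IDs and named 0 of them. Genes are therefore reported by ID, without roles, and no sequence is shown. For the same reason the labelled tissue could not be checked, because 0 IDs could be tied to a marker gene of embryo, seed coat or endosperm.

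Libraries of one line stood apart well beyond the members. In the 3513 abundant Bna genes that are no members, the leading component of the differences within lines held 56.1% of that variance. Its loadings placed A28-2 (0.59), R8Q10-2 (0.36) and SW-2 (0.22) at one end, and A28-3 (-0.45), R8Q10-3 (-0.37) and SW-3 (-0.29) at the other. YH25005 libraries had loadings between -0.12 and 0.13. Of these 3513 genes, 11.7% had a 5-fold range within A28. That share was 1.85% for R8Q10, 1.94% for SW and 0.427% for YH25005.

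A28 was the line in which most members swung. In A28 the ratio of highest to lowest replicate reached 5 for 92 of the 98 members. R8Q10 had 54 such members, SW had 43 and YH25005 had 41. Most members, 68, did so in 2 lines, 26 in 3 lines and 4 in all 4 lines. The commonest pairs of lines were A28 with R8Q10 (25 members), A28 with SW (19) and A28 with YH25005 (18). The median ratio within A28 was 8.85 for members and 1.93 for the other abundant genes. Within R8Q10 these medians were 5.19 and 1.56, within SW 3.71 and 1.51, and within YH25005 3.09 and 1.35. These ratios chose the members and are a description without a test. Some rest on few counts, as for BnaC02g40310D in R8Q10, with 22, 0 and 0 counts.

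The members fell into 3 groups by the A28 library in which they were highest. Forming the groups used the same values, so the groups carry no test either. Of the 98 members, 26 were highest in A28-1, 32 in A28-2 and 40 in A28-3. Replicate order in the other lines did not enter the grouping and is given below for each group. Between members of one group the median correlation of log2 CPM over the 12 libraries was 0.57 (1601 pairs), and between members of different groups it was -0.20 (3152 pairs). All such correlations share the same 12 libraries, and the A28 libraries among them formed the groups.

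**Figure D1:**
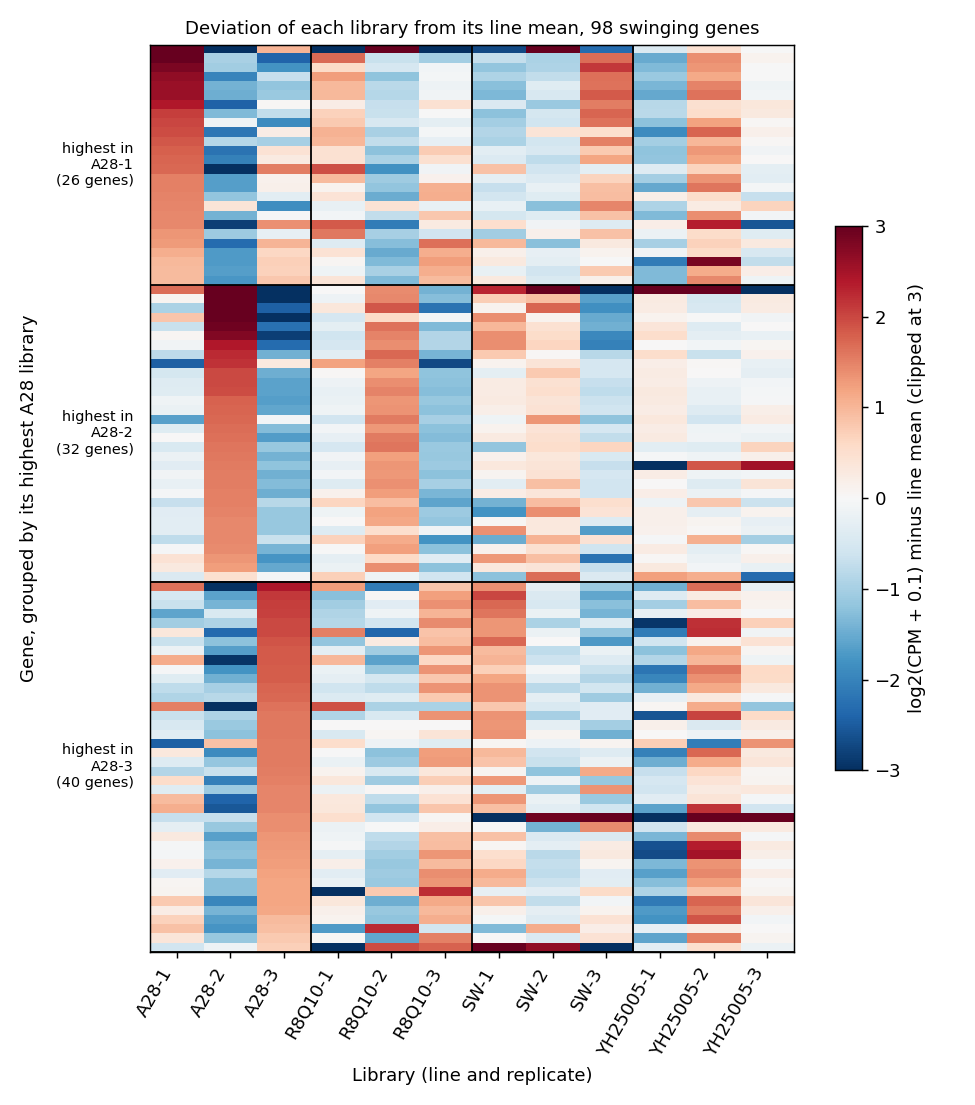
Each row is one of the 98 genes, each column a library, and colour gives log2(CPM + 0.1) minus the mean of the gene's line, clipped at 3. Rows are grouped by the highest A28 library, with 26, 32 and 40 genes, and the colours in R8Q10, SW and YH25005, which did not form the groups, differ between them.

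Among the 32 genes highest in A28-2, 28 followed the order A28-2, A28-1, A28-3 from high to low. In R8Q10, 29 followed the same order of replicate numbers, and 31 were highest in R8Q10-2. In SW, 24 were highest in SW-2 and 27 lowest in SW-3. In YH25005, 23 were highest in YH25005-1, but the range was narrow, with median deviations from the line mean of 0.23, -0.14 and -0.06 on the log2 scale in YH25005-1, -2 and -3. Non-members highest in A28-2 leaned the same way, since 78.2% of these 1658 genes were highest in R8Q10-2 and 46.0% in SW-2. The group tracked the leading within-line component of the non-members, with a median correlation of 0.94 over the 12 libraries and a range of 0.28 to 0.99. The genes highest in A28-1 had a median of -0.63 and those highest in A28-3 of -0.66. A28-2, whose level formed the first group, has the largest loading on that component, so these values are a description only.

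Within this group lay a set of genes of nearly one length. The ratio of count to FPKM, the deposited level per transcript length, gives an apparent length. For 10 members (10.2%) it was within 0.5% of that of BnaA04g20150D and lay between 942.1 and 945.7 bp. The same held for 13 of the 3513 abundant genes that are no members (0.370%). This length was noticed after the values had been seen. All 10 were highest in A28-2, R8Q10-2 and SW-2, and 9 of them in YH25005-1. The within-line deviations of log2 CPM of any 2 of them correlated at 0.97 or above over the 12 libraries (45 pairs, median 0.99). All 10 entered the list through their swings in A28 and R8Q10. Those swings weigh most in these deviations, so the height of the correlations is partly fixed by the rule and is a description only. With differences between lines kept in, the correlations of log2 CPM ran down to -0.08, with a median of 0.91. They lie, by ID, on A2, A3, A4, A7, A8, A9, C3, C5 and C7, in both subgenomes. Of the 13 non-members of that length, 11 were highest in A28-2 and 11 in R8Q10-2. Of all 3513 abundant non-members, 1658 were highest in A28-2 and 1629 in R8Q10-2.

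BnaA04g20150D was the most abundant of these per length, with a mean of 1325 FPKM over the 12 libraries. It had 315, 855 and 123 CPM in A28-1, -2 and -3 and 1136, 2686 and 487 CPM in R8Q10. In SW it had 1573, 2003 and 958 CPM, and in YH25005 it had 2122, 1469 and 1827 CPM. Replicate 2 was the high library in A28, R8Q10 and SW, and the lowest in YH25005. BnaA07g07560D (794 FPKM) had 246, 945 and 94.9 CPM in A28, 344, 952 and 159 CPM in R8Q10, 816, 969 and 478 CPM in SW, and 1716, 1114 and 1652 CPM in YH25005. BnaA09g26570D (697 FPKM) had 198, 977 and 83.1 CPM in A28, 345, 1126 and 164 CPM in R8Q10, 849, 1008 and 421 CPM in SW, and 1235, 854 and 956 CPM in YH25005. Both repeated the order of BnaA04g20150D in A28, R8Q10 and SW. BnaC05g22880D had 131, 671 and 56.2 CPM in A28 and correlated with BnaA09g26570D at 0.997 over the 12 libraries. No sequences were compared, so whether genes of this set are near-identical copies was not tested. The sources used here do not say how reads matching several genes were counted either, so levels of single genes of this set are uncertain.

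**Figure D2:**
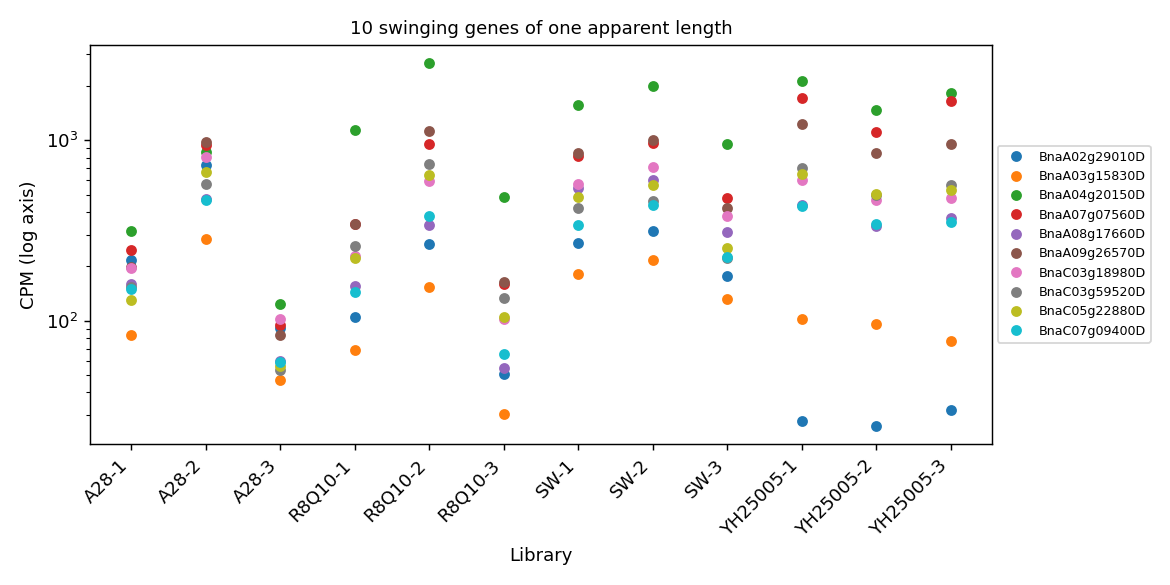
CPM on a log axis in each of the 12 libraries for the 10 genes with an apparent length of 942.1 to 945.7 bp. In A28 and R8Q10 replicate 2 is the highest and replicate 3 the lowest library for all 10 genes, and the range within YH25005 is at most 1.54-fold.

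Across the 10 genes the ratio of highest to lowest replicate ran from 5.97 to 11.9 in A28 and from 5.02 to 6.86 in R8Q10, but only from 1.63 to 2.39 in SW and from 1.22 to 1.54 in YH25005. A difference by line was seen in BnaA02g29010D, which had 268, 312 and 178 CPM in SW and 217, 727 and 91.4 CPM in A28, against 27.7, 26.1 and 31.8 CPM in YH25005. In this gene every SW and A28 library was above every YH25005 library.

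Among the other genes highest in A28-2, some had wider ranges in A28. BnaC07g27090D (372 FPKM) had 38.0, 486 and 2.48 CPM in A28 and 485, 1470 and 222 CPM in R8Q10. It had 1061, 1178 and 203 CPM in SW and 3479, 1979 and 3453 CPM in YH25005. A28-3 lay 189-fold below A28-2, while the YH25005 libraries lay within 1.76-fold of each other. BnaC07g40770D (489.5 FPKM) had 3.48, 72.2 and 1.16 CPM in A28, 270.3, 777 and 45.8 CPM in R8Q10, 177, 544 and 45.4 CPM in SW, and 580.2, 351 and 586 CPM in YH25005. BnaC04g20620D had 4.93, 123 and 33.3 CPM in A28 and 90.4, 111 and 5.96 CPM in R8Q10. BnaA08g11130D and BnaC03g65980D had nearly equal profiles (correlation of 0.99 over the 12 libraries). BnaA08g11130D had 9.76, 56.0 and 2.05 CPM in A28 and 137, 81.4 and 12.6 CPM in SW. BnaC03g65980D had 8.88, 58.9 and 1.12 CPM in A28 and 142, 79.2 and 14.2 CPM in SW. In both genes SW-1 was the highest SW library. BnaA08g11130D and BnaC03g65980D were picked after their values were seen.

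The 26 genes highest in A28-1 held the members with the highest mean CPM. In A28, 21 were lowest in A28-2. In R8Q10, 23 were lowest in R8Q10-2, with 13 highest in R8Q10-1 and 11 in R8Q10-3. In SW, 19 were highest in SW-3, and in YH25005, 25 were highest in YH25005-2 and 22 lowest in YH25005-1. Median deviations were 1.74 in A28-1 and -1.65 in A28-2, and 1.19 in YH25005-2 and -1.15 in YH25005-1, on the log2 scale. The replicate number that was high thus differed between lines. Of the 922 non-members highest in A28-1, 63.6% were lowest in R8Q10-2, 53.4% highest in SW-3 and 80.6% highest in YH25005-2. In A28, 47.0% of these non-members were lowest in A28-2.

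The 4 members with the highest mean CPM all belonged here. Per length, BnaA04g20150D of the group highest in A28-2 (1325 FPKM) lay above BnaA05g18870D, 1 of these 4 (1085 FPKM). BnaA06g40240D (2087 FPKM) had 5892, 404 and 242 CPM in A28-1, -2 and -3 and 10547, 4990 and 6595 CPM in R8Q10. It had 141, 166 and 1373 CPM in SW and 855, 5303 and 2111 CPM in YH25005. A28-1 was 24.4-fold above A28-3, SW-3 was 9.73-fold above SW-1, and R8Q10 kept within 2.11-fold. BnaC07g18750D (1710 FPKM) was 1 of the 4 members that swung in all lines, with 5874, 289.9 and 106 CPM in A28, 9973, 1929 and 1523 CPM in R8Q10, 129.6, 109 and 679 CPM in SW, and 357, 2673 and 1093 CPM in YH25005. Its log2 CPM correlated with that of BnaA06g40240D at 0.96 over the 12 libraries.

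BnaC05g31880D (1486 FPKM) had 5005, 302 and 384 CPM in A28, 9104, 2586 and 4306 CPM in R8Q10, 244, 448 and 2215 CPM in SW, and 360.3, 3229 and 988 CPM in YH25005. BnaA05g18870D (1085 FPKM) had 3477, 217 and 256 CPM in A28, 7162, 2096 and 3310 CPM in R8Q10, 149.9, 281 and 1108 CPM in SW, and 304, 2205 and 720.0 CPM in YH25005. These last 2 genes shared an apparent length of 1648 bp and correlated at 0.99. Together the 4 genes took 2.02% of all counts in A28-1, against 0.121% in A28-2 and 0.0988% in A28-3, and 3.68% in R8Q10-1, against 1.16% and 1.57% in the other R8Q10 libraries. In SW they took 0.0665%, 0.1004% and 0.537% of the counts, and in YH25005 0.188%, 1.34% and 0.491%. A single library of A28 thus carried most of the line's total of these genes.

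**Figure D3:**
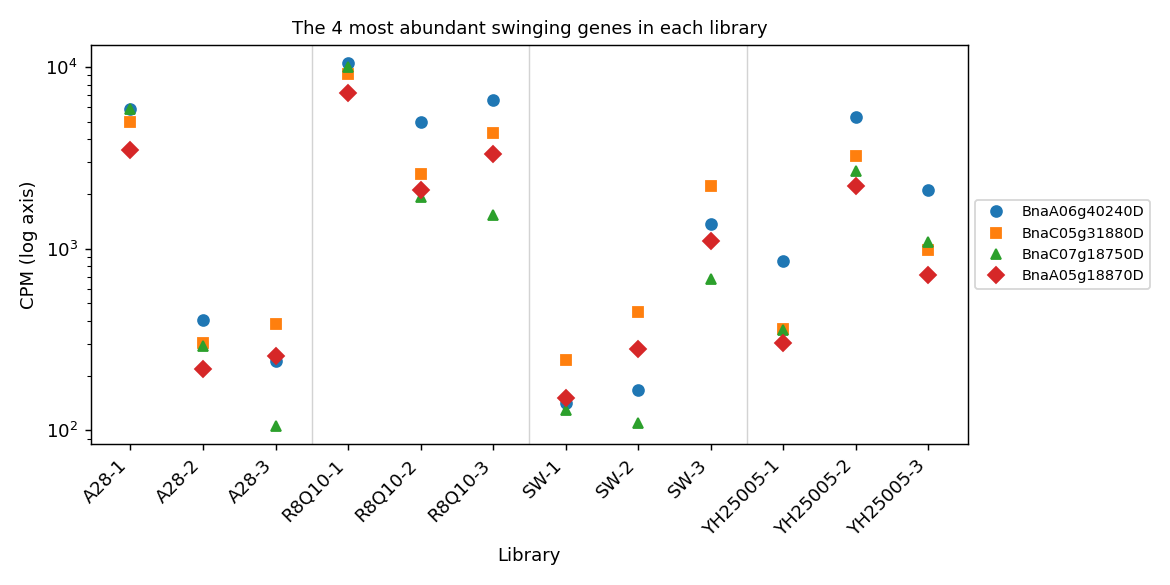
CPM on a log axis of the 4 members with the highest mean CPM in each of the 12 libraries, 1 symbol per gene. The 4 genes move together: A28-1, R8Q10-1, SW-3 and YH25005-2 are the high libraries, and in A28-2, A28-3, SW-1 and SW-2 no value exceeds 448 CPM.

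BnaA01g11480D (231 FPKM) had 868, 118 and 311 CPM in A28, 821, 517 and 1508 CPM in R8Q10, 433, 489 and 1162 CPM in SW, and 111, 730.5 and 264 CPM in YH25005. A28-1, R8Q10-3, SW-3 and YH25005-2 were its high libraries. BnaA06g01430D (38.1 FPKM) had 200.2, 10.3 and 191 CPM in A28, 47.6, 3.04 and 16.0 CPM in R8Q10, 66.9, 43.4 and 35.6 CPM in SW, and 0.576, 2.93 and 0 CPM in YH25005. BnaA02g31590D had 397, 12.4 and 348 CPM in A28 and 56.0, 4.02 and 13.4 CPM in R8Q10. In both, A28-2 and R8Q10-2 were low.

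The 40 genes highest in A28-3 were mirrored in A28 and R8Q10 against the genes highest in A28-2. Of these, 33 were lowest in A28-2, 1 was at 0 in both A28-1 and A28-2, and 31 were highest in R8Q10-3. In SW, 30 were highest in SW-1 and 22 lowest in SW-2. In YH25005, 34 were highest in YH25005-2 and 36 lowest in YH25005-1, with median deviations of 1.15 and -1.31. The median over these 40 genes of the line mean was 137 CPM in A28, 94.1 CPM in R8Q10 and 81.5 CPM in SW, against 24.8 CPM in YH25005. Of the 933 non-members highest in A28-3, 75.3% were lowest in A28-2 and 62.4% highest in R8Q10-3. Among these non-members 54.9% were highest in SW-1 and 67.3% in YH25005-2.

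BnaC04g40110D and BnaA04g16750D, both in this group, swung in all 4 lines. BnaC04g40110D had 366, 6.93 and 635 CPM in A28 and 204, 20.1 and 154 CPM in R8Q10. In SW it had 185, 59.4 and 32.6 CPM, and in YH25005 it had 1.36, 12.7 and 3.25 CPM. BnaA04g16750D had 294, 46.0 and 912 CPM in A28, 76.9, 5.02 and 48.7 CPM in R8Q10, 176, 62.7 and 31.5 CPM in SW, and 0.910, 20.1 and 3.93 CPM in YH25005. In A28 and R8Q10 both were lowest in replicate 2, in SW both were highest in replicate 1, and in YH25005 both were highest in replicate 2. BnaC07g42500D (662 FPKM), the most abundant gene of the group per length, had 1179, 503 and 2987 CPM in A28 and 489.9, 271 and 953 CPM in R8Q10. It had 397, 309.9 and 453 CPM in SW and 6.79, 217 and 50.8 CPM in YH25005. BnaCnng69940D had 288, 23.2 and 374 CPM in A28 and 0.789, 11.9 and 1.72 CPM in YH25005.

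**Figure D4:**
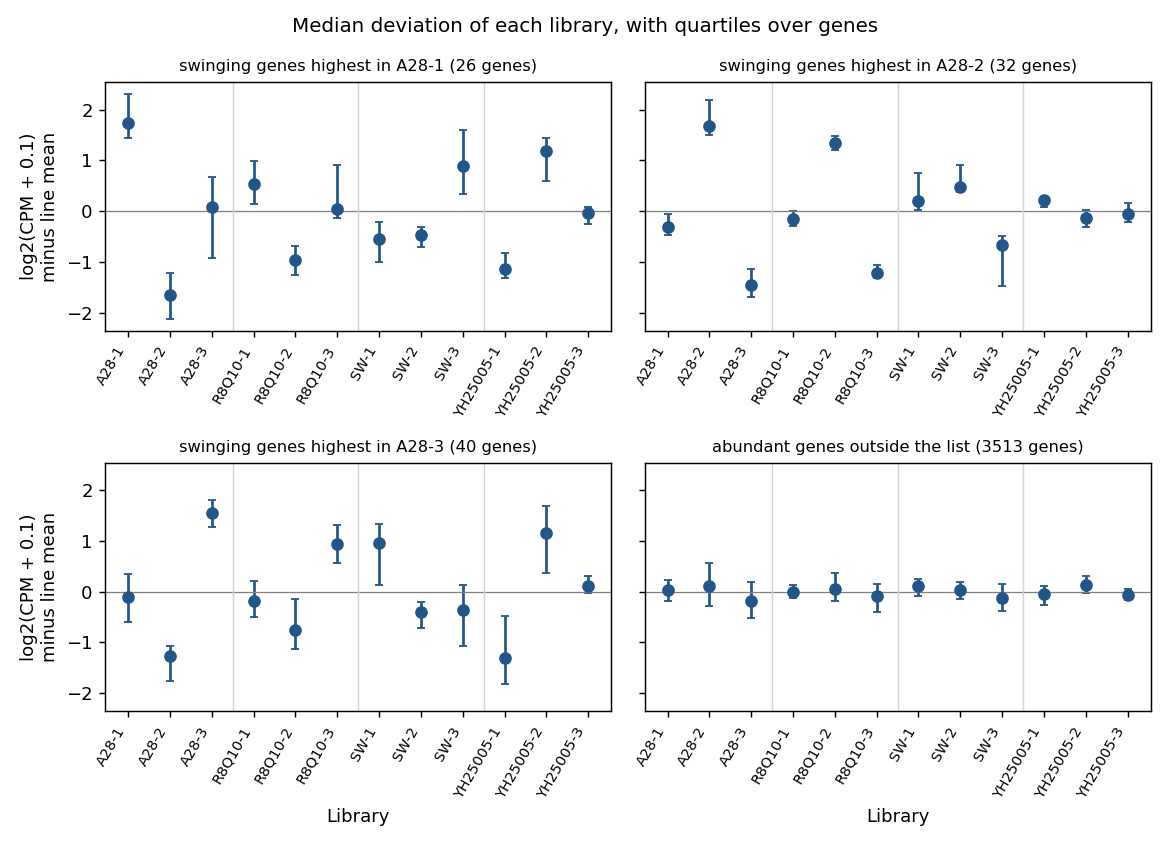
Points give the median over genes of log2(CPM + 0.1) minus the line mean in each library, and bars the quartiles over genes, for the 3 groups of swinging genes and the 3513 abundant genes outside the list. Group medians reach 1.74 and -1.65, while those of the other genes, which are shown without such a split, lie between -0.18 and 0.14. Split by their highest A28 library in the same way, the other genes have medians between -0.46 and 0.58.

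A few members were at or near 0 in some libraries of a line and high in others. BnaCnng13060D had 47.4, 684 and 0 CPM in A28, 59.7, 306 and 0 CPM in SW, and 212, 146 and 0 CPM in YH25005. In R8Q10 it had 54.0, 144 and 19.96 CPM, so replicate 3 was the lowest library of all 4 lines. BnaCnng38850D had 0, 0 and 0.330 CPM in A28, 139, 66.3 and 103 CPM in R8Q10, 0, 74.1 and 125 CPM in SW, and 0, 73.2 and 84.6 CPM in YH25005.

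BnaCnng38240D had 137, 0.199 and 18.3 CPM in A28, 0.315, 313 and 0.367 CPM in R8Q10, 0.295, 84.1 and 0.421 CPM in SW, and 35.7, 66.5 and 48.1 CPM in YH25005. BnaC03g49860D had 0.572, 35.1 and 30.7 CPM in R8Q10 and 92.7, 66.1 and 0.0903 CPM in SW, against 105, 143 and 261 CPM in A28 and 19.6, 34.6 and 21.7 CPM in YH25005. In BnaCnng38850D, BnaCnng38240D and BnaC03g49860D at least 1 line had a library below 1 CPM beside one above 30 CPM. A count of 0 allows up to 3 counts, which is 0.0736 to 0.0995 CPM in these libraries, for counting error only, and ratios against such a library depend on the 0.1 CPM added. Of the 98 members, 5 had 0 counts in at least 1 library, and 67 had at least 100 counts in every library. The ratios of these 67 genes therefore rest on well-filled libraries.

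Values just inside and just outside the 5-fold limit were close. On the second largest line ratio, BnaA01g30200D (5.02), BnaA03g15830D (5.02) and BnaA03g58750D (5.05) were the nearest members. BnaA06g14440D (4.96), BnaA02g08870D (4.93) and BnaAnng00630D (4.93) were the nearest genes left out. The lowest mean of a member was 50.6 CPM, and the nearest swinging gene left out for its level had 49.9 CPM.

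Position and length did not enter the rule. Of the 98 members, 50 carried an A and 48 a C subgenome ID (51.0% and 49.0%), against 48.3% and 51.5% of all 3611 abundant Bna genes. By ID, members were spread over all 19 chromosomes, with the highest counts on A7, A8, C3 and C7 (8 each). That is 8.16% of members per chromosome, against 4.24%, 3.60%, 8.09% and 3.90% of all abundant genes. The reference table, which matched 5 IDs, places BnaA07g04280D on C7 and not on A7. Only 1 pair, BnaA07g07560D and BnaA07g07570D, had neighbouring ID numbers. The median apparent length was 1244 bp in members and 1542 bp in the other abundant genes, with quartiles of 901 and 1781 bp, and of 934 and 2368 bp.

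Several A and C members had like profiles. Taking for each A member the C member with the most similar log2 CPM over the 12 libraries, 20 pairs were each other's best match, with correlations of 0.792 to 0.997 (median 0.967). These pairs were chosen for their correlation, so its height is no result. Of the 20 best-match pairs, 17 had both chromosomes named, and 4 of these 17 carried the same chromosome number. Among all A by C pairs with named chromosomes, 11.6% carried the same number. Apparent lengths were within 1% of each other in 4 of the 20 pairs, and in 2.00% of all A by C pairs. Among the 4, BnaA09g26570D with BnaC05g22880D and BnaA08g17660D with BnaC03g18980D belong to the set of nearly one length described above. Pairs within that set also enter the 2.00%. No table of homoeologous genes was used here.

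Differences between lines were then tested, since the rule took no contrast between lines other than the YH25005 exclusion. Counts were fitted with edgeR's quasi-likelihood test over all 43708 shared genes and 12 libraries, and p-values were adjusted (Benjamini-Hochberg) over all of these genes at a threshold of 0.05. The filter on low counts removed 0 genes, so all 98 members were tested. The members were chosen for a wide spread within lines, and that spread enters the test. The biological coefficient of variation of members was 0.72 in the median, against 0.30 over all genes. Any difference among the 4 lines was called in 31 of the 98 members (31.6%), against 46.2% of all genes tested. The 6 pairs share libraries and are not independent. Setting aside the 47 genes dominant in YH25005 removed genes lower in the other lines, so the balance of higher and lower members and the medians against YH25005 are partly fixed by the rule. Nothing is read from them, and counts with these genes kept, chosen after seeing the data, stand beside each such pair.

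A28 was compared with YH25005 first. Of the 98, 21 were higher and 15 lower in A28, 36 together (36.7%), against 27.2% of all genes (14.5% higher, 12.7% lower). The median log2 fold change was 0.69 in members and 0.06 over all genes. The lines did not overlap in 39 of the 98 members, against 49.8% of all genes. BnaC05g41990D had 1.28, 2.45 and 0.198 CPM in A28, against 151, 130.1 and 164 CPM in YH25005. No A28 library came near a YH25005 library (log2 fold change -7.27, SE 1.01, adjusted p = 0.000425). BnaCnng30140D had 2.28, 1.49 and 13.9 CPM in A28, against 397, 643 and 793 CPM in YH25005 (-7.07, SE 1.22, adjusted p = 0.00175). With the genes dominant in YH25005 kept, calls among 145 genes were 21 higher and 61 lower in A28. BnaCnng69940D, with the values given above, was higher in A28 (5.29, SE 1.21, adjusted p = 0.00867). This call was lost in 1 of the alternative settings.

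The A28 values that formed the groups also enter this contrast, and non-members were not split in this way. Calls by group are therefore a description only. By group, 15 of the 40 genes highest in A28-3 were called higher and 4 lower in A28 than in YH25005. Of the 32 genes highest in A28-2, 1 was called higher and 10 lower, and of the 26 highest in A28-1, 5 were called higher and 1 lower. The count moved with single libraries. Without A28-2 57 members were called, without A28-1 22, without YH25005-1 18 and without YH25005-3 14. Lower calls outnumbered higher ones without A28-3 (11 higher, 13 lower), without YH25005-1 (8 and 10) and without YH25005-3 (6 and 8).

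Between A28 and R8Q10, 4 members were higher and 8 lower in A28, 12 together (12.2%), against 21.7% of all genes (12% higher, 9.63% lower). The median log2 fold change was 0.18 in members and 0.06 over all genes. The lines did not overlap in 15 of the 98 members, against 35.9% of all genes. BnaA01g30200D had 70.3, 45.2 and 292 CPM in A28, against 0 counts in all 3 R8Q10 libraries. Against 3 counts over those libraries together, it was at least 4580-fold higher in A28 (adjusted p = 0.000138). BnaC02g40310D had 203, 7.93 and 222 CPM in A28, against 0.629, 0 and 0 CPM in R8Q10 (log2 fold change 9.43, SE 1.62, adjusted p = 0.00146). That size rests on 22 counts in R8Q10-1. Without that library R8Q10 is at 0, and BnaC02g40310D was at least 3586-fold higher in A28, against 3 counts over both other libraries. BnaC05g41990D was lower in A28, against 36.1, 65.6 and 34.5 CPM in R8Q10 (-5.12, SE 0.92, adjusted p = 0.00199). In all 3 genes every library of one line lay beyond every library of the other.

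Same-numbered libraries of A28 and R8Q10 deviated from their line means together (correlations across genes of 0.12 to 0.59). A28-1, though, went more with R8Q10-3 (0.21) than with R8Q10-1 (0.12). The labels do not say what replicate numbers share, so a pairing by number is uncertain. With A28 and R8Q10 alone and the replicate number as a block, 40 members were called, 12 higher and 28 lower in A28. The same lines without the block gave 10. A block in the fit of all 12 libraries gave 13, and leaving out A28-2 gave 22. With the genes dominant in YH25005 kept, calls among 145 genes were 4 higher and 24 lower in A28.

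A28 and SW were compared next. Of the 98, 0 were higher and 7 lower in A28 (7.14%), against 15.4% of all genes (7.5% higher, 7.9% lower). At an unadjusted edgeR p under 0.05 there were 17 of the 98 members, against 11978 of all 43708 genes. DESeq2 called 4 members higher and 8 lower, and its share over all genes was not worked out. The median log2 fold change was 0.36 in members and 0.06 over all genes. The lines did not overlap in 12 of the 98 members, against 28.8% of all genes. BnaC05g41990D had 1.28, 2.45 and 0.198 CPM in A28, against 36.9, 27.7 and 3.13 CPM in SW (-4.20, SE 0.89, adjusted p = 0.00738). BnaA04g24790D had 0.687, 0.265 and 4.79 CPM in A28, against 247, 45.3 and 20.9 CPM in SW (-5.77, SE 1.27, adjusted p = 0.00926). Both calls were lost with only A28 and SW in the fit, at adjusted p = 0.0603 for BnaC05g41990D and 0.0527 for BnaA04g24790D. For BnaA04g24790D the call was lost in 2 settings in all. The count of members called was 23 without A28-2, 3 without A28-1, 3 without YH25005-2, 4 without SW-2 and 4 without YH25005-3. With the genes dominant in YH25005 kept, calls among 145 genes were 0 higher and 16 lower in A28.

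R8Q10 against SW also gave 7 calls (7.14%), 4 higher and 3 lower in R8Q10, against 23.6% of all genes (11.2% higher, 12.4% lower). The median log2 fold change was 0.19 in members and -0.01 over all genes. The lines did not overlap in 24 of the 98 members, against 43.5% of all genes. BnaA01g30200D had 0 counts in R8Q10, against 95.7, 31.3 and 19.0 CPM in SW, so it was at least 1738-fold lower in R8Q10 (adjusted p = 0.000231). BnaC02g40310D had 0.629, 0 and 0 CPM in R8Q10, against 183, 75.7 and 82.4 CPM in SW (-9.13, SE 1.61, adjusted p = 0.00156). Without R8Q10-1 BnaC02g40310D was at 0 in R8Q10 and at least 2722-fold lower there, against the same floor. BnaAnng34630D had 83.1, 155 and 101 CPM in R8Q10, against 17.2, 8.24 and 1.99 CPM in SW (3.56, SE 0.76, adjusted p = 0.00521). None of these genes had overlapping lines. The count was 4 without R8Q10-3, 4 without SW-2, 11 without R8Q10-2, 11 without A28-3, 12 without A28-1, 12 without SW-3 and 13 without A28-2. Lower calls outnumbered higher ones without R8Q10-2 (4 higher, 7 lower), A28-2 (6 and 7), A28-3 (5 and 6), SW-1 (2 and 4) or R8Q10-1 (3 and 4).

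R8Q10 against YH25005 gave 10 calls (10.2%), 6 higher and 4 lower in R8Q10, against 23.4% of all genes (10.7% higher, 12.7% lower). With the genes dominant in YH25005 kept, calls among 145 genes were 6 higher and 38 lower. The lines did not overlap in 45 of the 98 members, against 57% of all genes. The median log2 fold change was 0.92 in members and 0.02 over all genes. BnaA07g36480D had 465, 302 and 957 CPM in R8Q10, against 5.94, 41.4 and 15.0 CPM in YH25005 (4.47, SE 0.91, adjusted p = 0.00502). BnaA01g30200D had 0 counts in R8Q10, against 219, 147 and 238 CPM in YH25005, at least 7038-fold lower in R8Q10 (adjusted p = 0.000117). BnaC03g10290D had 172, 45.7 and 274 CPM in R8Q10, against 15.8, 20.1 and 8.63 CPM in YH25005 (3.10, SE 0.81, adjusted p = 0.0180). That call was lost in 4 of the alternative settings, among them those without R8Q10-3 (adjusted p = 0.0649), YH25005-1 (0.0607) or YH25005-3 (0.0779). The count was 26 without A28-2, 22 without R8Q10-2, 18 without A28-3, 4 without R8Q10-1, 3 without YH25005-1, 3 without YH25005-3 and 2 without R8Q10-3. Lower calls outnumbered higher ones without YH25005-1 (1 higher, 2 lower) or YH25005-3 (1 and 2).

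SW against YH25005 gave 15 calls (15.3%), 12 higher and 3 lower in SW, against 26.7% of all genes (13.6% higher, 13.1% lower). With the genes dominant in YH25005 kept, calls among 145 genes were 12 higher and 39 lower. The median log2 fold change was 0.07 in members and -0.00 over all genes. The lines did not overlap in 38 of the 98 members, against 52.9% of all genes. BnaAnng34630D had 17.2, 8.24 and 1.99 CPM in SW, against 80.4, 75.3 and 64.4 CPM in YH25005 (-3.36, SE 0.75, adjusted p = 0.00689). BnaA02g31590D had 319, 115 and 141 CPM in SW, against 3.85, 8.05 and 4.11 CPM in YH25005 (4.85, SE 1.22, adjusted p = 0.0133). BnaA02g29010D, of the set of equal length, was higher in SW (2.80, SE 0.72, adjusted p = 0.0146). Of the other 9 genes of that set, 0 passed the threshold in this pair by edgeR. Whether BnaA02g29010D differs from them was not tested. The call of BnaA02g31590D was lost without YH25005-1 (adjusted p = 0.0586) or YH25005-3 (0.0575), and that of BnaA02g29010D without YH25005-1 (0.0548) or YH25005-2 (0.0534). The count was 23 without A28-2, 8 without SW-2, 3 without YH25005-1 and 3 without YH25005-3. Lower calls outnumbered higher ones without YH25005-1 (0 higher, 3 lower) and without YH25005-3 (1 and 2).

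**Figure D5:**
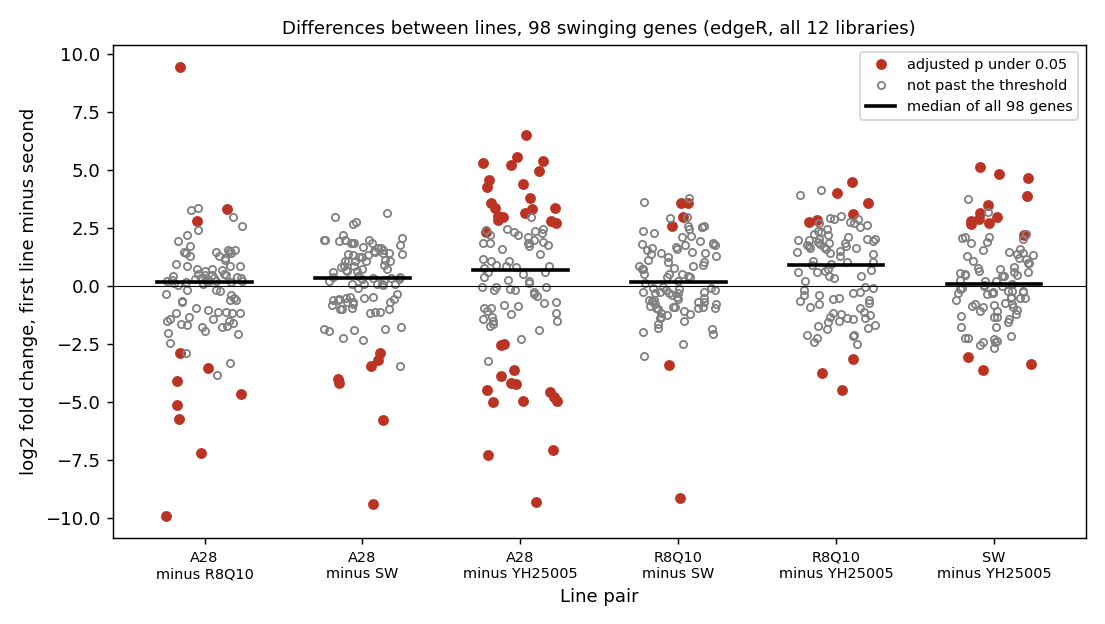
Each point is 1 of the 98 genes, with its edgeR log2 fold change (first line minus second) for the 6 line pairs, filled where the adjusted p was under 0.05, and bars give the median of all 98. BnaA01g30200D is left out of the 3 pairs with R8Q10, where it had 0 counts. Filled points number 12, 7, 36, 7, 10 and 15 with that gene counted.

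The 4 members with the highest mean CPM passed the threshold in none of the 6 pairs. For BnaA06g40240D the line means were 7378 ± 2860 CPM in R8Q10 and 560.1 ± 704 CPM in SW (SD, n = 3 each), yet the adjusted p from edgeR was 0.0754. In A28 its mean was 2179 ± 3216 CPM, so the SD exceeded the mean. In all, 42 members were called in at least 1 pair and 56 in none.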

How the data were processed

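Counts per gene and FPKM values, 1 file per library, were made and deposited by the authors, per the file headers. bcl2fastq, HISAT2 and DESeq2 were used by the authors, per the submitters' processing notes, which carry no versions. The sources used here do not name a genome build, annotation or counter. Poly-A selected RNA was sequenced, per the labels' protocols, which do not mention strand, so overlapping genes cannot be told apart. The 43708 genes listed in all 12 files entered the tests. Deposited FPKM values served for apparent length (count over the product of FPKM and column total, median of libraries with at least 100 counts) and for levels compared between genes.

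Lines were taken from the sample titles. Tests used edgeR 4.0.16 in R 4.3.3 (TMM scaling, filterByExpr, 1 coefficient per line, quasi-likelihood F test), and DESeq2 1.42.0 was an alternative. Printed CPM are unscaled, while fold changes carry TMM factors of 0.766 to 1.14. SEs were derived from the fold change and its F value. Same-numbered libraries of every line pair were compared by their deviations from line means. Only for A28 with R8Q10 were all of these correlations positive. The edgeR step was tested on simulated data.

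Members and lists were chosen with earlier results of these data known. Named genes were the 10 with the highest mean CPM, the 10 with the largest second ratio, those swinging in all 4 lines, the 3 nearest to the limit on each side and up to 3 called members without overlap per line pair. A list of 27 marker symbols (embryo and storage, seed coat, endosperm, heat shock, photosynthesis) had 5 genes in the Da-Ae reference table and 0 tied to an ID of the files. Promoter motifs were not analysed here. Alternatives covered scaling, filter, test, pairing, the libraries fitted and the settings of the rule.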

Additional observations from a re-analysis of the deposited data

Results flagged for a closer look

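Genes whose IDs contain the word newGene were outside the rule, since their IDs do not start with Bna. Of those listed in all files, 6 met the rest of the rule. The 3 with the highest mean level were Brassica_napus_newGene_5417, which reached 53526 counts in a library, Brassica_napus_newGene_5039 with 16489 counts and Brassica_napus_newGene_18726 with 29074 counts. They were noted because these counts lie above the 3 counts that a count of 0 allows, in genes the comparisons did not count.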

How the results depend on the processing

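The number of members was 98 by the rule. It was 197 at a 4-fold and 28 at an 8-fold limit, 224 at a mean of 20 CPM and 48 at 100 CPM, 519 with swing in 1 line and 30 in 3 lines. TMM-scaled CPM gave 87 genes, 79 of them members, and ratios on FPKM, chosen after seeing the data, gave 106, of which 96 are members. Adding 1 CPM in place of 0.1 CPM before taking ratios gave 87 genes, all of them members. Without single libraries the number of members ran from 51 to 102, with 51 without A28-2 (49 of them members) and 62 without A28-3. Leaving out a library can only keep or lower the ratio of its line, while mean levels can shift either way. A smaller number thus follows in part from the rule.

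Calls between lines depended on the fit. Shares of all genes were worked out for the main edgeR fit only. Counts of members from other fits, here and above, cannot be set against those shares. With DESeq2, any difference was called in 59 members. By pair it called A28 minus R8Q10 in 22, A28 minus SW in 12, A28 minus YH25005 in 50, R8Q10 minus SW in 23, R8Q10 minus YH25005 in 32 and SW minus YH25005 in 28. With only the lines compared, SW minus YH25005 had 24 calls, R8Q10 minus YH25005 33, R8Q10 minus SW 14, A28 minus YH25005 23 and A28 minus SW 2. With the replicate block in the fit of 12 libraries R8Q10 minus SW had 15 (5 higher, 10 lower). The block also turned the balance for A28 minus YH25005 (14 higher, 24 lower), R8Q10 minus YH25005 (2 and 12) and SW minus YH25005 (6 and 7). With only the lines compared and the replicate block, a setting chosen after seeing the data, A28 minus R8Q10 had 40, A28 minus YH25005 7 and R8Q10 minus SW 20. With the genes dominant in YH25005 kept, which adds 47 genes, A28 minus R8Q10 had 28, A28 minus SW 16, A28 minus YH25005 82, R8Q10 minus YH25005 44, SW minus YH25005 51 and any difference 77. Only for A28 and R8Q10 were all correlations of deviations between same-numbered libraries positive. In the other line pairs they ran from -0.31 to 0.38, the highest between A28-2 and SW-2. R8Q10-2 and SW-2 correlated at 0.33. The cause of the moves between settings was not tested. Without single libraries A28 minus R8Q10 ran from 9 to 22 calls, A28 minus SW from 3 to 23, A28 minus YH25005 from 14 to 57, R8Q10 minus SW from 4 to 13, R8Q10 minus YH25005 from 2 to 26, SW minus YH25005 from 3 to 23 and any difference from 17 to 62 (20 without YH25005-1, 17 without YH25005-3, 62 without A28-2). RLE scaling and members chosen on TMM-scaled CPM kept every count within 1.5 times. The filter removed 0 genes, so the fit without it is the main fit and tells nothing more. The 17 named line contrasts kept their sign in all 306 combinations with a setting and passed the threshold in 294. These contrasts were picked among the calls of the main fit for a small adjusted p, and every setting refits the same libraries. Some settings only leave out a library of a line outside the pair. The tally is therefore partly fixed by that choice and is a description only.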
